A study of Mus musculus with 32 samples.

Results

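The osteocyte-like cells described here are 3902 single cells, out of 107853 cell barcodes, from bone marrow stromal cells that were grown under osteogenic conditions (BMSC-OBs). Marrow came from femurs of 77 Diversity Outbred (DO) mice, an outbred population bred from several inbred founder strains, and the cells of 4 or 5 mice were mixed before capture, which gave 16 pools. Each pool was 1 droplet library sequenced in 2 runs, and the values below are from run HGYVNCCX2. All pools were cultured the same way, 3 days to confluence and then 10 days in osteogenic medium, with no other treatment, so the pool is the replicate (n = 16) and the comparisons are between classes of cells within a pool.

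A cell was eligible when its barcode had 400 to 6200 detected genes, at most 10% mitochondrial unique molecular identifiers (UMIs, each standing for 1 captured RNA molecule), at least 5000 UMIs and fewer than 2 UMIs of *Tyrobp*, a myeloid adaptor gene, per 10000. This left 48776 cells. Each was scored by the mean of log(1 + UMIs per 10000) over 7 genes, *Gal*, *Sost*, *Phex*, *Mepe*, *Ptprz1*, *Ackr3* and *Kcnk1*, and the top 8% over all pools together were taken as osteocyte-like. They were compared with the 19130 other eligible cells in which *Ibsp*, the bone sialoprotein gene and a marker of matrix-making osteoblasts, held at least 3% of the UMIs (other Ibsp-high cells). As a background, 9079 *Tyrobp*-positive cells that met the other limits were used, since the 7 genes are not genes of myeloid cells.

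Osteocytes are osteoblasts that have become enclosed in the matrix they laid down. They stop dividing, shrink, grow dendrites that touch neighbouring cells through gap junctions, and sense load. They control bone formation through secreted Wnt antagonists such as sclerostin, the product of *Sost*, and phosphate balance through proteins such as PHEX, DMP1 and FGF23. Early osteocytes carry podoplanin (*Pdpn*) and *Dmp1*, whereas *Sost* marks mature ones in bone. These cells were cultured and not taken from bone, and they were released with EDTA, collagenase and trypsin, so the label rests on transcripts alone.

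The start sites of *Sost* and *Mepe*, the genes that most often led the score of a member, are shown because both markers define the cells. RefSeq sequence (GRCm38.p6, 250 bases before to 50 bases after the start, 5′ to 3′ on the gene's strand) was searched on both strands for the RUNX core TGTGGT and the TATA box TATAAA. Matches are in capitals, and no matches shown overlap.
Mepe (chr5:104325079-104325378, plus strand): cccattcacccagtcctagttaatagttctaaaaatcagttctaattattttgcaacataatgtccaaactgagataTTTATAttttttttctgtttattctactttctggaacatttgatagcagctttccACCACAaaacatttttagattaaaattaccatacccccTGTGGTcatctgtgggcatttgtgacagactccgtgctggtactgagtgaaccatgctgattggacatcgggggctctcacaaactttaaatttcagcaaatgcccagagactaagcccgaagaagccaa
Sost (chr11:101966966-101967265, minus strand): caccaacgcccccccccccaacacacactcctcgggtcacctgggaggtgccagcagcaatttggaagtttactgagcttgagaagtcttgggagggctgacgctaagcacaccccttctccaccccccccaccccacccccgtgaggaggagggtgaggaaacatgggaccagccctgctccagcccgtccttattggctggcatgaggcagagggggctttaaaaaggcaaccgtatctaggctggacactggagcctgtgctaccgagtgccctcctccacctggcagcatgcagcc
The *Mepe* window held 2 RUNX cores and 1 TATA box and the *Sost* window held neither. Of 32851 promoter windows, 16.8% held the RUNX core and 13.6% the TATA box, against 2 of 7 windows of the score genes for each (28.6%). A match is a match of letters only.

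The osteocyte-like cells were present in every pool, at very different shares of the eligible cells. The lowest share was 1.44% in pool 2 (47 of 3257 cells, 95% Clopper-Pearson interval 1.06% to 1.91%), the median pool had 6.21%, and the highest was 18.7% in pool 3 (609 of 3256 cells, 17.4% to 20.1%). The mean was 8.13% ± 5.16 (SD, n = 16). Pools 3, 5 and 13 stood above 15%, and pools 1, 2 and 10 below 4%. The intervals cover counting error only, and since each pool holds 4 or 5 mice, they say nothing of the spread between mice.

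**Figure D1:**
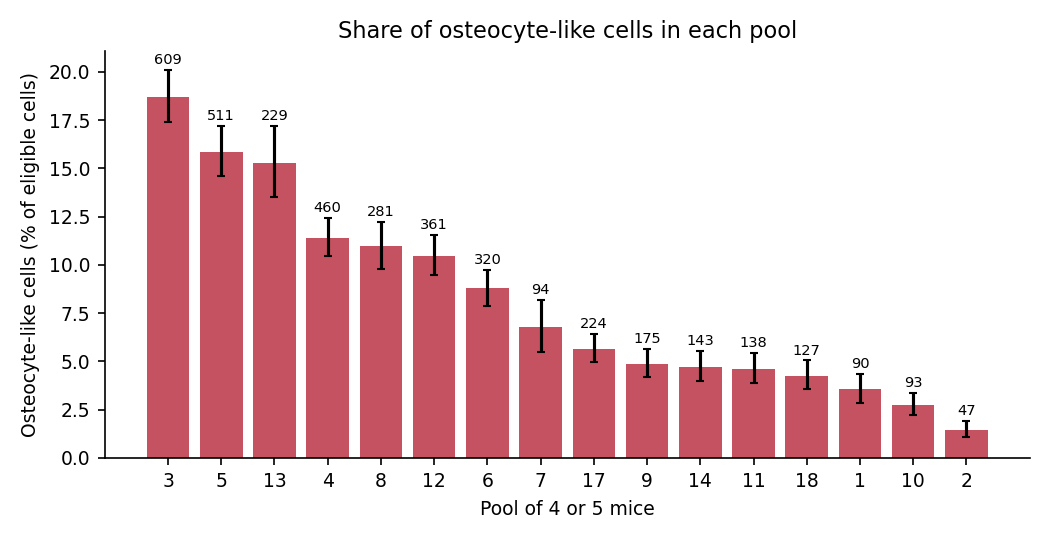
Share of osteocyte-like cells among eligible cells in each of the 16 pools, ordered by the share; bars are percentages with 95% Clopper-Pearson intervals, and the number above each bar is the count of osteocyte-like cells. The shares run from 18.7% in pool 3 to 1.44% in pool 2.

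The Ibsp-high share of all eligible cells counts the 96.0% of members that were themselves Ibsp-high, so its planned test against the share of osteocyte-like cells (Pearson's r = 0.616) set a part against its own whole, and nothing is read from it. Over the cells that were not members, an alternative added after the data were seen, the Ibsp-high share was not related to the share of osteocyte-like cells beyond the threshold across the 16 pools (Pearson's r = 0.441, permutation p = 0.0866, adjusted p = 0.130; Spearman's rho = 0.450, permutation p = 0.0811, adjusted p = 0.122; adjusted over 3 relations). Without pools 7 and 17, which lay farthest from the median of that share, r was 0.586 (permutation p = 0.0297), so whether it passed depended on those pools. Against the median UMIs per eligible cell, r was 0.223 (permutation p = 0.402; rho = 0.218, permutation p = 0.417), and 0.410 without pools 4 and 7 (permutation p = 0.144). No relation to depth was detectable with 16 pools.

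Members had a median of 17514.5 UMIs (quartiles 12056.25 and 23563.25) and 3470.0 genes, and other Ibsp-high cells 21118 UMIs and 3924 genes. Mitochondrial genes held a median of 2.30% and 2.68% of their UMIs. After each cell was thinned to 5000 UMIs, members had on average 1656 ± 67.2 detected genes (SD over 16 pool medians) and other Ibsp-high cells 1691 ± 60.8. The difference was -35.4 genes, members being lower in 14 of 16 pools (exact two-sided sign-flip permutation test, p = 0.000397; the smallest p that 16 pools allow is 3.05e-05). *Ibsp* alone held a median of 9.76% of the UMIs of members and 6.38% in other Ibsp-high cells. The part of such abundant transcripts in this difference was not tested, and the test was not repeated with both classes at 7% *Ibsp*. The barcodes with the highest Scrublet scores of a pool were called doublets, 0.8% per 1000 barcodes of the pool. Their number was thus set in advance and is no measured doublet rate. They made up 3.31% of members, 7.02% of other Ibsp-high cells and 6.67% of the other eligible cells. Any 2 pools shared 3 to 28 cell barcodes (median 13) of 120 pairs compared.

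The 7 genes that chose the cells are given as a description. *Sost* was read in 73.9% of members after thinning to 5000 UMIs (83.3% unthinned), in 12.7% of other Ibsp-high cells and in 4.00% of *Tyrobp*-positive cells, which had a median of 8578 UMIs before thinning. *Mepe*, which encodes a phosphoglycoprotein of bone matrix, was read in 74.5%, 29.0% and 7.35% of the same classes, and *Phex*, the endopeptidase gene mutated in X-linked hypophosphatemia, in 91.4%, 39.6% and 7.42%. *Gal*, the galanin neuropeptide gene, was read in 57.9%, 26.9% and 4.32%. For *Ptprz1*, a receptor phosphatase gene, the shares were 91.1%, 60.5% and 9.45%, for *Ackr3*, a chemokine scavenger receptor gene, 83.6%, 51.2% and 8.99%, and for *Kcnk1*, a leak potassium channel gene, 78.3%, 45.4% and 5.76%. All 7 shares in other Ibsp-high cells were above those in *Tyrobp*-positive cells. The median member had UMIs of 6 of the 7 genes after thinning, and 87.0% had at least 5. The median other Ibsp-high cell had 3, and 14.3% of them had at least 5.

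The limit is a place in a ranking, so cells on either side of it have nearly equal scores. The lowest score of a member and the highest score of a cell left out both rounded to 1.47, 868 members and 1010 other cells lay within 0.1 of the limit, and 966 of those 1010 were Ibsp-high. The class is a range of the score as the rule sets it, and whether these cells form a cluster of their own was not tested. The members' median score was 1.72, against 0.66 in other Ibsp-high cells. *Ibsp* itself held a median of 9.76% of the UMIs of members and 6.38% in other Ibsp-high cells, and 155 members had less than 3%.

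The members were not alike in the genes that carried their score. *Mepe* was the highest of the 7 genes in 45.8% of members, *Sost* in 19.8%, *Gal* in 13.5%, *Ptprz1* in 10.0% and *Phex* in 6.77%, with *Ackr3* in 3.51% and *Kcnk1* in 0.513%. This mix differed between pools. *Mepe* led in 59.0% of members of pool 13 but in 7.87% of those of pool 18, where *Gal* led in 41.7% and *Sost* in 31.5%. In pool 13, *Gal* led in 1.31%. Levels of summed cells are given as CPM, the UMIs of a gene per 1000000 UMIs of a class in a pool. In members, *Gal* was 124, 515 and 1506 in the lowest, median and highest pool, a 12.1-fold range between pools 6 and 18. *Mepe* was 461, 1948 and 2813, lowest in pool 18 and highest in pool 3. *Sost* was 419, 953 and 1306. *Phex* (554, 711 and 1036), *Ptprz1* (589, 772 and 1062), *Ackr3* (390.2, 507 and 703) and *Kcnk1* (273, 367 and 495) varied less than 2-fold between pools. A low level in 1 pool can come from any of its 4 or 5 mice, which were not separated here.

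To describe how the 7 genes go together without using a gene to find itself, each was left out in turn and the top 8% were chosen by the other 6. The left-out gene was tested across all genes with edgeR's quasi-likelihood test on summed UMIs with the pool as a block. The 7 genes were picked with earlier results of these data known, so their rise together can be built in and is no independent support. These fits were not repeated with both classes held to at least 7% *Ibsp*. All 7 were higher in cells chosen by the other 6, while the percentage of all genes tested that were called higher in those fits was 26.5% for *Gal*, 28.7% for *Sost*, 27.0% for *Phex* and *Ptprz1*, 29.9% for *Mepe*, 27.1% for *Ackr3* and 27.2% for *Kcnk1*. *Sost* (chr11:101962458-101967015, GRCm38) was at 74.9, 578 and 911 CPM in the lowest, median and highest pool, against 36.8, 100.4 and 243 in the other Ibsp-high cells of the same pools. The ranges overlapped only through the lowest pools, 2 and 10, and each pool was higher in the chosen cells (log2 fold change 2.25 ± 0.15 SE, adjusted p = 5.43e-12). It was number 22 of 11731 genes by fold change.

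*Phex* (chrX:157162075-157415312) was at 478, 587 and 1011 against 91.6, 182 and 309, with no overlap between the ranges (log2 fold change 1.89 ± 0.09 SE, adjusted p = 9.47e-14). *Mepe* (chr5:104325329-104338611) was at 150.04, 979.9 and 2093 against 48.9, 389.9 and 793, higher in 16 of 16 pools but with wide overlap of the ranges (log2 fold change 1.41 ± 0.15 SE, adjusted p = 2.38e-08). *Gal* (chr19:3409915-3414544) was at 83.7, 308 and 1121 against 47.6, 146 and 261, and pool 7 was the only pool in which it was not higher in the chosen cells, 215.7 against 233.9 (log2 fold change 1.25 ± 0.16 SE, adjusted p = 3.38e-07).

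The other 3 genes rose less and more evenly. *Ptprz1* (chr6:22875502-23052916) was at 448, 607 and 924 against 228, 299 and 459 (log2 fold change 1.20 ± 0.07 SE, adjusted p = 2.12e-12). *Ackr3* (chr1:90203980-90216751) was at 326, 433 and 563 against 174, 227 and 281, with no overlap (log2 fold change 1.00 ± 0.05 SE, adjusted p = 5.63e-13). *Kcnk1* (chr8:125995170-126030685) was at 242, 325 and 463 against 132, 186 and 234, also without overlap (log2 fold change 0.98 ± 0.06 SE, adjusted p = 3.39e-12). The 3 were higher in 16 of 16 pools.

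**Figure D2:**
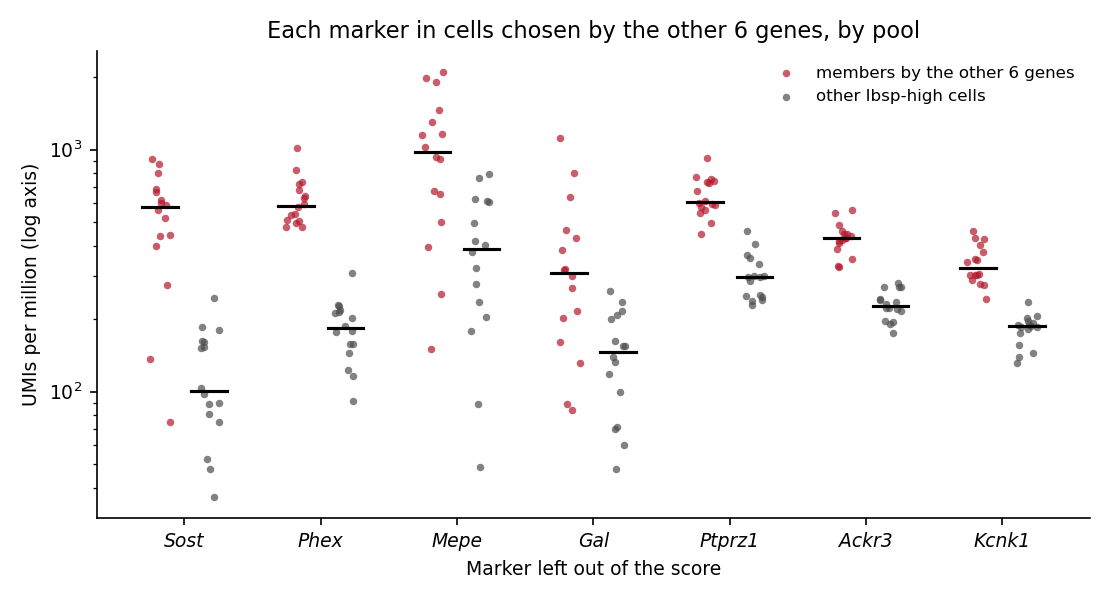
Each score gene in cells chosen by the other 6 genes (red) and in other Ibsp-high cells (grey), in CPM on a log axis; each point is 1 of 16 pools and the bar is the median. The ranges of *Phex*, *Ackr3* and *Kcnk1* do not overlap between the 2 classes, and those of *Gal*, *Sost*, *Mepe* and *Ptprz1* do.

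Over all genes the score did not use, members differed widely from the other Ibsp-high cells. Of 11835 genes tested, 6748 passed an adjusted p of 0.05 (57.0%), 3248 of them higher in members (27.4%) and 3500 lower (29.6%). With at least a 2-fold difference as well, 688 passed (5.81%), 224 higher (1.89%) and 464 lower (3.92%). The median log2 fold change of all genes was -0.02. For 116 genes (0.980%) the ranges of the 16 pools did not overlap between the classes, 32 higher in members (0.270%) and 84 lower (0.710%). Any gene that goes with 1 of the 7 score genes from cell to cell can differ in this comparison. The p-values therefore say only that a difference was large beside its spread from pool to pool. List counts are to be read against these percentages.

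Members had more *Ibsp* than the cells they were compared with. With both classes held to at least 7% *Ibsp*, an alternative added after the data were seen, 2878 members and 8176 other cells were left, 5093 genes passed, and 298 of them differed at least 2-fold. The differences of *Omd* (-2.80 on the log2 scale, from -2.89), *Tmem119* (-1.69, from -1.80), *Dock9* (1.74, from 2.23), *Cd44* (1.02, from 1.28) and *Gja1* (0.75, from 0.96) changed by less than 1.5 times. Those of *Acta2* (-1.58, from -2.82), *Tagln* (-1.49, from -2.92), *Mki67* (-1.40, from -2.15), *Dmp1* (0.40, from 0.80), *Irx5* (0.55, from 0.84) and *Col1a1* (0.30, from 0.55) were smaller by more than 1.5 times. So were, among the genes below, *Mef2c* (0.22, from 0.35), *Frzb* (0.77, from 1.18), *Nkd2* (-0.92, from -1.40), *Pls3* (0.34, from 0.55), *Actg1* (-0.18, from -0.36), *Cfl1* (-0.22, from -0.34), *Ncam1* (0.38, from 0.61), *Plod2* (0.10, from 0.28), *Myl9* (-1.47, from -2.28), *Timp3* (-1.45, from -2.43), *Ndnf* (-1.53, from -2.41) and *Col8a1* (-1.22, from -2.17), while *Col2a1* (-1.40, from -0.71) was larger. All of these still passed.

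Of 11 osteocyte genes outside the score, 9 had enough UMIs to be tested, 8 were higher in members and 1 was lower, against 27.4% and 29.6% of all genes. Their median log2 fold change was 0.84. *Dmp1*, which encodes an acidic protein that nucleates mineral, was at 416, 874 and 1334 CPM in the lowest, median and highest pool of members, against 247, 465 and 862 in other Ibsp-high cells. The ranges overlapped, yet 15 of 16 pools were higher in members (log2 fold change 0.80 ± 0.09 SE, adjusted p = 5.12e-08). The exception was pool 2, with 731.7 against 861.7.

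*Pdpn*, the podoplanin gene needed for the first dendrites, was at 13.0, 24.03 and 139 against 4.64, 12.2 and 31.5, a low level that was higher in members of every pool (log2 fold change 1.33 ± 0.13 SE, adjusted p = 6.92e-09). Pool 10 was highest. *Cd44*, a hyaluronan and osteopontin receptor gene, was at 92.2, 176 and 349 against 54.3, 79.5 and 111 (log2 fold change 1.28 ± 0.09 SE, adjusted p = 1.44e-11), and *Gja1*, the main gap junction gene of osteocytes, at 405, 502 and 856 against 228, 280.5 and 321, without overlap (log2 fold change 0.96 ± 0.06 SE, adjusted p = 2.1e-12).

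*Irx5*, a homeobox gene of the Iroquois family, was at 139, 222 and 435 against 106, 134 and 184 and higher in 16 of 16 pools (log2 fold change 0.84 ± 0.07 SE, adjusted p = 2.49e-10). *Mef2c*, a transcription factor that acts on a *Sost* enhancer, was at 804, 1011 and 1252 against 684, 818 and 1045 (log2 fold change 0.35 ± 0.03 SE, adjusted p = 1.31e-09). Capping protein gene *Capg* was the member of the list that was lower, at 13.9, 22.3 and 39.1 against 32.5, 44.0 and 81.6 (log2 fold change -0.94 ± 0.08 SE, adjusted p = 4.62e-10). *Fgf23*, the phosphate hormone gene of osteocytes in bone, was too low to be tested, with 1 UMI in all members and 6 in the other Ibsp-high cells, as was *Ostn*, osteocrin, with 3 and 60.

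**Figure D3:**
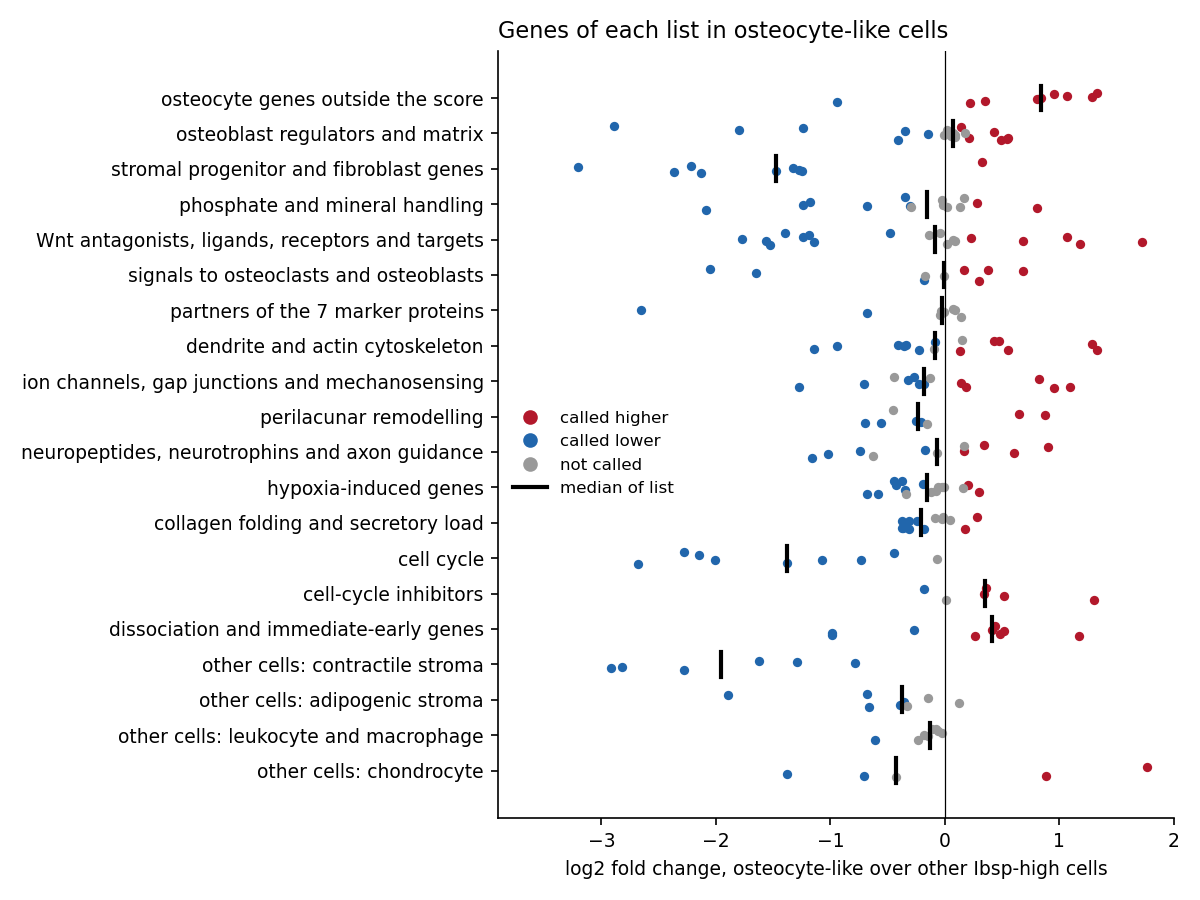
Log2 fold change of every tested gene of each list, osteocyte-like over other Ibsp-high cells; red and blue points passed an adjusted p of 0.05, grey points did not, and black bars are list medians. Osteocyte genes outside the score lie mostly right of 0, whereas contractile, fibroblast and cell-cycle genes lie far to the left.

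Genes of the osteoblast went both ways, at about the shares of all genes. Of 19 regulators and matrix genes, 6 were higher in members (31.6%, against 27.4% of all genes), 6 lower (31.6%, against 29.6%) and 7 did not pass. The median log2 fold change of the list was 0.07, and 11 were higher and 5 lower against comparison cells from 1% *Ibsp*. The collagen I genes were higher: *Col1a1* was at 28419.7, 50333 and 58369 against 22295, 36087 and 38960.3 CPM, in 16 of 16 pools (log2 fold change 0.55 ± 0.05 SE, adjusted p = 1.2e-09). *Spp1*, osteopontin, was at 3328, 6488 and 12461 against 10810.4, 16621 and 28698 and lower in every pool (log2 fold change -1.24 ± 0.09 SE, adjusted p = 9.89e-11). *Tmem119*, a membrane protein gene of differentiating osteoblasts, was at 82.0, 113 and 207 against 269, 420.1 and 689.8 without overlap (log2 fold change -1.80 ± 0.10 SE, adjusted p = 5.2e-13).

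*Omd*, a keratan sulfate proteoglycan gene of osteoblasts, was at 7.06, 15.0 and 28.7 against 52.5, 131 and 189, again without overlap (log2 fold change -2.89 ± 0.09 SE, adjusted p = 1e-16). *Sp7*, the osterix gene that drives osteoblast commitment, was at 61.4, 106 and 149.6 against 98.0, 134 and 221 (log2 fold change -0.41 ± 0.04 SE, adjusted p = 2.08e-08), and *Runx2* had a log2 fold change of -0.14 ± 0.05 (adjusted p = 0.0159; 0.0563 with the top 4% of cells and 0.729 at a log2 fold change of -0.02 with both classes at 7% *Ibsp*). *Alpl*, alkaline phosphatase, was at 1000.4, 1609 and 1859.7 against 1295, 1554 and 1811 and did not pass (log2 fold change 0.02 ± 0.04 SE, adjusted p = 0.705). *Bglap*, osteocalcin, was at 3910.3, 11471 and 22460.1 against 3780.2, 8296 and 14452 and was higher in 14 of 16 pools (log2 fold change 0.50 ± 0.15 SE, adjusted p = 0.0078). That call was lost with DESeq2 (adjusted p = 0.125), with the top 4% of cells (0.0797) and with both classes held to at least 7% *Ibsp* (0.151). Its near copies *Bglap2* and *Bglap3* did not pass (log2 fold changes 0.09 ± 0.20 and 0.18 ± 0.17, adjusted p = 0.719 and 0.409), and reads could be split among the 3 genes.

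The 12 genes with the largest rises were taken from called genes that were higher in every pool and had a mean of at least 50 CPM in members. Score genes and predicted, clone-named or mitochondrial genes were left out. *Dock9*, a Cdc42 exchange factor gene, was at 32.2, 62.0 and 99.7 against 7.96, 14.1 and 18.4, without overlap (log2 fold change 2.23 ± 0.10 SE, adjusted p = 1.26e-14). *Wasl*, the N-WASP gene that couples Cdc42 to actin branching, was at 201, 353 and 524 against 82.3, 154 and 194 (log2 fold change 1.32 ± 0.06 SE, adjusted p = 3.32e-14), and *Sema5a*, a semaphorin, at 60.1, 100.2 and 197 against 29.2, 39.1 and 52.1 (log2 fold change 1.48 ± 0.08 SE, adjusted p = 2.31e-13). *Lyst*, a lysosomal trafficking regulator gene, was at 47.6, 80.5 and 103 against 18.8, 31.2 and 36.1 (log2 fold change 1.46 ± 0.06 SE, adjusted p = 8.69e-15). Those 3 did not overlap either.

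The others were *Pgam2* (muscle phosphoglycerate mutase), *Comp* (cartilage oligomeric matrix protein), *Plpp1* (a lipid phosphatase), *Lgr6* (an R-spondin receptor), *Ddit4l* (an mTORC1 inhibitor), *Cd44*, *Agt* (angiotensinogen) and *Fbxo32* (atrogin-1, a muscle ubiquitin ligase), with log2 fold changes from 1.26 for *Fbxo32* to 1.93 for *Pgam2*. *Lgr6* was at 23.0, 68.6 and 96.0 against 11.8, 20.7 and 35.9 (log2 fold change 1.66 ± 0.09 SE, adjusted p = 3.21e-13), and *Plpp1* at 127, 307 and 414 against 50.9, 86.3 and 147 (log2 fold change 1.68 ± 0.09 SE, adjusted p = 2.61e-13). For these 8 genes the ranges overlapped, and the members were the higher class within every pool.

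The 12 largest falls were taken likewise, from called genes lower in every pool with a mean of at least 50 CPM in other Ibsp-high cells. They included 3 genes of the contractile list. *Acta2*, smooth muscle actin, was at 10.0, 22.4 and 47.7 in members against 90.1, 163 and 374 (log2 fold change -2.82 ± 0.11 SE, adjusted p = 1.06e-15), and *Tagln*, transgelin, at 3.98, 7.78 and 23.7 against 40.8, 71.2 and 207 (log2 fold change -2.92 ± 0.15 SE, adjusted p = 1.51e-13), both without overlap. *Myl9*, a myosin light chain, fell likewise (log2 fold change -2.28 ± 0.09 SE, adjusted p = 1.96e-15). The others were *Omd*, above, *Col12a1*, *Col8a1*, *Col3a1*, *Postn* (periostin), *Tnn* (tenascin N), *Timp3* (a metalloproteinase inhibitor), *Ndnf* (a secreted neurotrophic factor) and *Mgp* (matrix Gla protein, an inhibitor of mineralization). Besides *Omd*, their log2 fold changes lay between -2.49 for *Col12a1* and -2.09 for *Mgp*.

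Of 10 stromal progenitor and fibroblast genes, 9 were tested and 8 were lower in members (88.9%, against 29.6% of all genes). The median log2 fold change of the list was -1.47. *Lum*, lumican, was at 0.641, 1.51 and 8.02 against 3.63, 22.1 and 36.4 (log2 fold change -3.20 ± 0.17 SE, adjusted p = 2.7e-13), and *Postn* at 8.45, 31.0 and 71.8 against 64.0, 140.1 and 271 (log2 fold change -2.22 ± 0.11 SE, adjusted p = 1.38e-13). *Pdgfra* was the 1 gene of the list that was higher (log2 fold change 0.33 ± 0.05 SE, adjusted p = 2.54e-06, 14 of 16 pools). All 6 contractile stroma genes were lower, against 29.6% of all genes. With both classes at 7% *Ibsp* or more, *Cnn1* turned to 0.14 on the log2 scale and did not pass. The summed level of the 6 genes was 73.1, 105 and 193 CPM in the lowest, median and highest pool of members, 318, 477 and 965 in other Ibsp-high cells and 2470.2, 4026 and 5289 in the remaining eligible cells.

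Wnt pathway genes went both ways. Of 20 antagonists, ligands, receptors and targets, 18 were tested and 5 did not pass (median log2 fold change of the list -0.09). In members, 5 were higher (27.8%, against 27.4% of all genes) and 8 lower (44.4%, against 29.6%). Against comparison cells from 1% *Ibsp*, 19 were tested, 8 higher and 8 lower, and in the second run 7 were higher and 8 lower. *Dkk1*, a secreted Wnt co-receptor antagonist gene, was at 18.6, 35.5 and 66.7 against 9.11, 19.7 and 34.2 and higher in every pool (log2 fold change 1.07 ± 0.09 SE, adjusted p = 4.6e-10). *Frzb*, a secreted frizzled-related antagonist gene, was at 14.1, 37.2 and 91.1 against 8.47, 17.9 and 26.4 (log2 fold change 1.18 ± 0.09 SE, adjusted p = 1.33e-10). *Wif1*, a secreted Wnt inhibitor gene, was higher by less (log2 fold change 0.23 ± 0.07), and *Sfrp4* did not pass. *Dkk2* was too low to be tested. The other 4 antagonists were lower: *Notum*, a Wnt deacylase gene, was at 0, 3.69 and 7.90 against 10.0, 14.5 and 20.1 without overlap (log2 fold change -1.57 ± 0.14 SE, adjusted p = 1.42e-09), and *Sfrp1*, *Sfrp2* and *Dkk3* had log2 fold changes of -1.19, -1.14 and -1.24.

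Of the ligands, *Wnt5a* was lower (log2 fold change -1.77 ± 0.15 SE, adjusted p = 3.92e-10) and *Wnt10b* and *Wnt16* higher (log2 fold changes 0.68 and 1.72), although *Wnt16* stood at a median of 1.90 CPM. The pathway's targets *Tcf7*, *Nkd2* and *Axin2* were lower, with log2 fold changes of -1.53, -1.40 and -0.48 (adjusted p = 4.95e-11, 1.33e-08 and 0.0223). *Axin2* no longer passed with called doublets removed (adjusted p = 0.0707), with members chosen on thinned cells (0.129), with the top 4% of cells (0.192) or without the pool as a block (0.112). The sclerostin receptors *Lrp4*, *Lrp5* and *Lrp6* did not pass (log2 fold changes -0.04 ± 0.07, 0.09 ± 0.06 and 0.07 ± 0.05).

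Among partners of the other marker proteins, *Ptn*, the pleiotrophin gene and a ligand of PTPRZ1, was at 0, 0.254 and 2.13 against 0.534, 3.71 and 7.30 CPM (log2 fold change -2.66 ± 0.29 SE, adjusted p = 3.12e-08). *Cxcl12*, a ligand of ACKR3, was at 17.7, 39.8 and 254 against 37.7, 90.2 and 234 (log2 fold change -0.68 ± 0.14 SE, adjusted p = 0.000324), and its level in the remaining eligible cells had a median of 1959. It no longer passed with both classes at 7% *Ibsp* or more (adjusted p = 0.523). Of 12 partners, 8 were tested, none was higher (edgeR's quasi-likelihood test), 2 were lower and 6 did not pass (median log2 fold change of the list -0.02). Against comparison cells from 1% *Ibsp*, 9 were tested, 2 higher and 3 lower. In the second run 1 was higher and 2 lower. With both classes at 7% *Ibsp*, 7 were tested, *Ptn* not among them, and none passed. Galanin receptors *Galr1* and *Galr2* were too low to be tested, with 1 and 21 UMIs in all members.

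Of 15 genes of phosphate and mineral handling, 14 were tested. In members, 2 were higher (14.3%, against 27.4% of all genes) and 6 lower (42.9%, against 29.6%). The higher genes were *Dmp1* and the phosphate transporter gene *Slc20a1* (log2 fold change 0.28 ± 0.06). The median log2 fold change of the list was -0.16. Against comparison cells from 1% *Ibsp*, 5 were higher and 6 lower, and with the top 16% of cells 4 and 6. The lower call of *Slc20a2* (log2 fold change -0.30, adjusted p = 0.0481) was lost in 10 of 16 fits with 1 pool left out. It was also lost with both classes at 7% *Ibsp* (adjusted p = 0.452). *Smpd3*, the neutral sphingomyelinase gene needed for skeletal mineralization, was at 50.7, 189 and 388 against 189.5, 424 and 777 (log2 fold change -1.18 ± 0.13 SE, adjusted p = 3.83e-08). *Ank* and *Enpp1*, which raise extracellular pyrophosphate, an inhibitor of mineral growth, had log2 fold changes of -0.68 and -0.35 (adjusted p = 1.46e-06 and 0.00083).

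Of 9 signals to osteoclasts and osteoblasts, 4 were higher (44.4%, against 27.4% of all genes), 3 lower (33.3%, against 29.6%) and 2 did not pass. The median log2 fold change of the list was -0.01. With both classes at 7% *Ibsp*, 8 were tested, 5 were higher and 1 lower, and *Csf1* turned from -0.19 to 0.24. Without the pool as a block, 1 was higher and 2 lower. With DESeq2, members also held to 3% *Ibsp*, the top 16% of cells or comparison cells from 1% *Ibsp*, 3 were higher and 3 lower. With the top 8% within each pool or thinned scores, 8 were tested, 3 higher and 2 lower. The higher call of *Il6* (log2 fold change 0.38, adjusted p = 0.0261) was lost in 3 of 16 fits with 1 pool left out. *Tnfsf11*, RANKL, was barely present, at 0, 0.187 and 1.92 CPM in members and 0.429, 1.40 and 4.15 in other Ibsp-high cells, and its soluble decoy receptor *Tnfrsf11b*, osteoprotegerin, was at 0.980, 6.28 and 29.1 against 11.4, 19.4 and 56.6. Both were lower in members of every pool (log2 fold changes -2.05 ± 0.28 and -1.65 ± 0.18). *Bmp2* was at 56.8, 109 and 203 against 39.0, 66.0 and 143 and higher in 15 pools (log2 fold change 0.69 ± 0.09 SE, adjusted p = 1.18e-06).

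Of 15 dendrite and actin genes, 6 were higher (40.0%, against 27.4% of all genes) and 7 lower (46.7%, against 29.6%). The higher genes were *Pdpn*, *Cd44*, the actin-bundling gene *Pls3*, *Enah*, *Ezr* and *Msn*. *Actb*, *Actg1*, *Cfl1* and *Fscn1* were among the lower. The median log2 fold change of the list was -0.09. *Actb* no longer passed with both classes at 7% *Ibsp* (adjusted p = 0.0568). *Pls3* was at 136, 271 and 439 against 127, 195 and 261 (log2 fold change 0.55 ± 0.06 SE, adjusted p = 1.01e-07). Of 13 tested ion channel, junction and mechanosensing genes, 5 were higher (38.5%, against 27.4% of all genes) and 6 lower (46.2%, against 29.6%). The median log2 fold change of the list was -0.18, and 4 were higher and 4 lower with both classes at 7% *Ibsp*. *Cacna2d1*, a calcium channel subunit gene, was at 64.4, 87.6 and 155 against 37.4, 44.5 and 57.5 without overlap (log2 fold change 1.09 ± 0.07 SE, adjusted p = 3.55e-12), whereas *Kcnma1*, the large-conductance potassium channel gene, was lower (log2 fold change -1.27 ± 0.11 SE, adjusted p = 7.33e-10). *Piezo1*, a stretch-activated channel gene, had medians of 52.9 and 52.8 and was higher in members of 7 of 16 pools (log2 fold change 0.14 ± 0.04 SE, adjusted p = 0.00642), a call lost with both classes at 7% *Ibsp* (adjusted p = 0.243).

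Of 8 perilacunar remodelling genes, 2 were higher and 4 lower, against 27.4% and 29.6% of all genes, and 2 did not pass. The median log2 fold change of the list was -0.23. The higher genes were *Mmp13* and *Car2* (log2 fold change 0.65, adjusted p = 0.00608). *Car2* no longer passed with both classes at 7% *Ibsp* (adjusted p = 0.188). In that setting 7 were tested, 1 higher and 4 lower. With DESeq2, 1 was higher and 4 lower, and without the pool as a block 1 and 3. In the second run 2 were higher and 5 lower. *Mmp13*, collagenase 3, was at 156, 463 and 6539.6 against 163, 216 and 3787 and higher in 14 of 16 pools (log2 fold change 0.88 ± 0.18 SE, adjusted p = 0.000194). Pools 1 and 2 stood apart, at 5119 and 6540 CPM of members, the next pool being at 1074. *Mmp14* and *Mmp2* were lower (log2 fold changes -0.70 and -0.56). Of 11 tested neuropeptide, neurotrophin and guidance genes, 4 were higher (36.4%, against 27.4% of all genes) and 4 lower (36.4%, against 29.6%). The median log2 fold change of that list was -0.07. *Sema7a* (log2 fold change 0.90 ± 0.06 SE, adjusted p = 4.12e-11) and the adhesion gene *Ncam1* (log2 fold change 0.61 ± 0.06 SE, adjusted p = 9.23e-09) were higher in every pool, and *Nrp1* and *Efnb2* were among the lower.

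Of 14 collagen folding and secretion genes, 8 were lower (57.1%, against 29.6% of all genes) and 2 higher (14.3%, against 27.4%), none by 2-fold. Against comparison cells from 1% *Ibsp*, 5 were lower and 4 higher. The median log2 fold change of the list was -0.21. *Serpinh1*, the collagen chaperone HSP47, was at 1476, 2089 and 2448 against 2099, 2739 and 3398 (log2 fold change -0.35 ± 0.03 SE, adjusted p = 3.23e-09), while *Plod2*, a collagen lysyl hydroxylase gene, was higher (log2 fold change 0.28 ± 0.03 SE, adjusted p = 9.76e-08). Of 16 hypoxia-induced genes, 7 were lower (43.8%, against 29.6% of all genes), 2 higher (12.5%, against 27.4%) and 7 did not pass. The higher genes were *Vegfa* and *Bnip3*, the latter with an adjusted p of 0.28 at 7% *Ibsp* in both classes. The median log2 fold change of the list was -0.16. The lower calls ranged from 3, with comparison cells from 1% *Ibsp*, to 10, with both classes at 7% *Ibsp*, and 1 passed without the pool as a block. *Egln3* and *Pfkfb3* (log2 fold changes -0.43 and -0.19, adjusted p = 0.0402 and 0.0447) lost their calls in 8 and 9 of 16 fits with 1 pool left out, and *Ero1l* (-0.44, adjusted p = 0.0152) with the top 16% of cells (0.179). *P4ha1*, a prolyl hydroxylase subunit gene, was at 170.3, 669 and 1187 against 305, 1198 and 1539 (log2 fold change -0.68 ± 0.06 SE, adjusted p = 8.27e-10). In both classes it was lowest in pools 1 and 2.

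Of 9 cell-cycle genes, 8 were lower in members (88.9%, against 29.6% of all genes), 6 of them at least 2-fold, and *Pcna* did not pass. The median log2 fold change of the list was -1.38. With both classes at 7% *Ibsp*, 6 were lower, *Mcm2* and *Tyms* no longer passing (adjusted p = 0.141 and 0.852). *Mki67* was at 0, 1.53 and 4.602 against 3.69, 8.17 and 38.6 (log2 fold change -2.15 ± 0.18 SE, adjusted p = 3.41e-10) and *Cdk1* at 1.81, 4.18 and 10.3 against 11.4, 15.7 and 72.8, without overlap (log2 fold change -2.01 ± 0.12 SE, adjusted p = 1.76e-12). Of 6 inhibitors, 4 were higher (66.7%, against 27.4% of all genes) and 1, *Cdkn2c*, was lower (16.7%, against 29.6%). The median log2 fold change of the list was 0.35. The call of *Cdkn2c* (log2 fold change -0.18 ± 0.08 SE, adjusted p = 0.0426) was lost in 11 of 16 fits with 1 pool left out, with DESeq2 (0.0535) and with both classes at 7% *Ibsp* (0.21). *Cdkn1c*, p57, was at 4.602, 17.4 and 41.8 against 5.27, 8.41 and 12.4 and higher in 15 pools (log2 fold change 1.30 ± 0.12 SE, adjusted p = 1.58e-09), and *Cdkn1a*, p21, was higher in 16 (log2 fold change 0.34 ± 0.05 SE, adjusted p = 8.99e-07). Of 9 dissociation and immediate-early genes, 6 were higher (66.7%, against 27.4% of all genes) and 3 lower (33.3%, against 29.6%). *Atf3*, a stress-induced transcription factor gene, led the higher ones, at 187, 416 and 591 against 109, 204 and 249.9 (log2 fold change 1.17 ± 0.06 SE, adjusted p = 2.23e-13). The lower genes were *Egr1*, *Hspa1a* and *Hspa1b*, and the median log2 fold change of the list was 0.42. *Egr1* no longer passed with both classes at 7% *Ibsp* (adjusted p = 0.0705). Their summed level was 2609.8, 3801 and 4819 against 2469, 2973 and 3370.1. The part of release from the matrix in the other differences was not tested.

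The 8 leukocyte and macrophage genes summed to 51.2, 122 and 219 CPM in the lowest, median and highest pool of members, 90.2, 148 and 244 in other Ibsp-high cells and 6720.2, 11973 and 19304 in *Tyrobp*-positive cells. The 7 osteoclast genes, which include *Ctsk*, a gene that osteocytes also use, summed to 98.3, 118 and 139.8, 114, 146 and 178 and 426, 1085 and 3275. The 8 adipogenic stroma genes summed to 71.0, 159.6 and 423 in members against 2092, 3419 and 7369 in the remaining eligible cells. Between members and other Ibsp-high cells, the median sums were 15.7 against 42.1 for 5 granulocyte genes, 8.15 against 13.4 for 5 endothelial genes and 1.64 against 4.70 for 4 glial genes. They were 22.4 against 18.9 for 6 lymphocyte genes and 0.353 against 0.115 for 3 erythroid genes, of which 1 was at 0 in every pool of both classes, so these 2 lists had the higher median in members. The sums of these lists were not tested. Of the 2 lymphocyte genes with enough UMIs for a test, none was higher in members and 1, *Igkc*, was lower. Its log2 fold change was -0.56 (adjusted p = 0.0468, and 0.0521 with both classes at 7% *Ibsp*). With DESeq2 and with called doublets removed, 1 of the 2 genes was higher and 0 were lower. Neither gene passed without the pool as a block, with thinned scores or with the top 16% of cells.

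With the lymphocyte and erythroid lists, the chondrocyte list also had a higher median in members than in other Ibsp-high cells, at 102, 258 and 554 in members against 55.3, 134 and 307 in other Ibsp-high cells. Of its 5 tested genes, 2 were higher (40.0%, against 27.4% of all genes) and 2 lower (40.0%, against 29.6%). The median log2 fold change of the list was -0.43. *Comp* was at 33.2, 95.5 and 269.8 against 4.06, 31.5 and 138 (log2 fold change 1.76 ± 0.19 SE, adjusted p = 2.67e-08) and *Sox9*, the cartilage transcription factor gene, at 64.2, 129.8 and 232 against 44.6, 72.8 and 87.7 (log2 fold change 0.88 ± 0.10 SE, adjusted p = 5.5e-08). The defining cartilage collagen *Col2a1* was at 0, 1.54 and 66.0 against 2.03, 7.96 and 115 and lower (log2 fold change -0.71 ± 0.26 SE, adjusted p = 0.0221; 0.0583 with the top 16% of cells), and *Col10a1*, of hypertrophic cartilage, stood at a median of 0.498.

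Along the score, genes that it did not use followed different courses. Ibsp-high cells, members included, were divided by their place in the ranking of all eligible cells, from the 948 in the top 2% to the 8618 below the top 32%, and summed in each pool with at least 20 such cells. *Dock9* rose through every step, from 3.91 ± 1.05 CPM (SD, n = 16 pools) below 32% to 39.9 ± 10.6 at 8 to 16% and 83.7 ± 23.7 (n = 12 pools) in the top 2%. *Dmp1* was at 407 ± 208, 782 ± 278 and 793 ± 293 at the same steps. The 2 steps between the limit and the top 2% stood at 815 ± 251 (n = 16 pools) and 812 ± 339.7 (n = 13 pools), and the means of the steps on either side of the limit lay within 1 SD of each other. *Bglap* was at 4909.6 ± 2525, 11958 ± 5310.3 and 11792 ± 5731.

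Among the falling genes, *Acta2* went from 277 ± 90.9 below 32% to 41.6 ± 16.8 at 8 to 16% and 22.7 ± 22.2 in the top 2%. *Omd* went from 181 ± 44.5 to 37.0 ± 11.3 and 6.34 ± 4.64, and *Spp1* from 19807 ± 8363 to 11227 ± 3361 and 4630.3 ± 2290.1. These values are a description with no test, and the steps share pools but not always the same number of them.

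**Figure D4:**
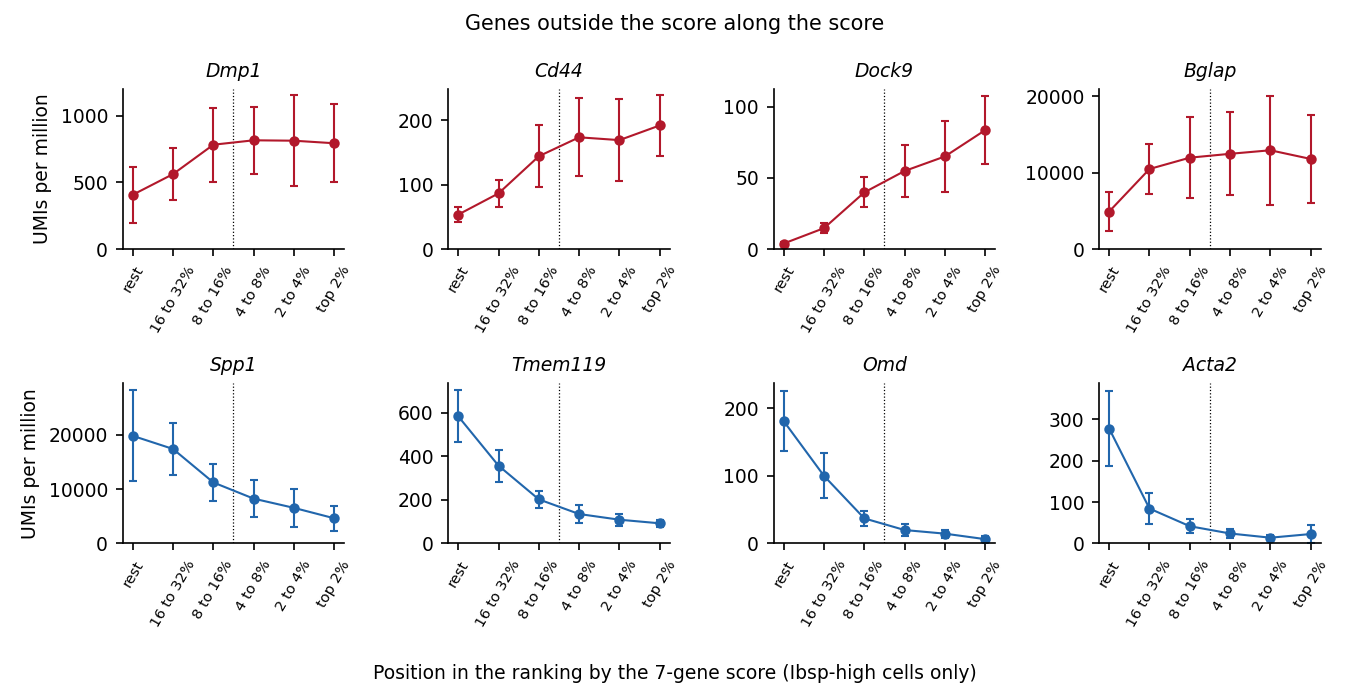
Mean level (CPM ± SD over pools) of 8 genes outside the score in Ibsp-high cells, ordered from the lowest to the highest place in the ranking by the 7-gene score; members lie right of the dotted line. *Dmp1*, *Cd44* and *Bglap* have about the same mean in the steps just left and just right of the line, though not over the whole ranking. *Dock9* keeps rising, and *Spp1*, *Tmem119*, *Omd* and *Acta2* fall.

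The cells were then split by *Sost* itself. After thinning to 5000 UMIs, 2885 members had at least 1 *Sost* UMI and 1017 had none, although 367 of the latter (36.1%) had *Sost* UMIs before thinning. Since the score adds up 7 genes, a member with little or no *Sost* had to reach the limit on the other 6, and genes that go with those 6 can be lower beside *Sost* by the choice of members alone. Of 7928 genes, 618 passed an adjusted p of 0.05 in that split (7.80%), 284 higher with *Sost* (3.58%) and 334 lower (4.21%), and 11 by at least 2-fold (0.139%), 3 higher (0.0378%) and 8 lower (0.101%), with overlapping ranges over pools throughout (0 of 7928 did not overlap, 0.00%). These counts are a description, and nothing is read from them.

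The split was therefore repeated, as an alternative added after the data were seen, in the 3902 cells with the highest score over the other 6 genes, in whose choice *Sost* had no part and of which 3113 (79.8%) were members. Of these, 2143 had *Sost* UMIs after thinning (*Sost*-detected) and 1759 had none (*Sost*-undetected, although 431 of them, 24.5%, had *Sost* UMIs before thinning). Pool 2, with fewer than 20 *Sost*-detected cells, was left out, so 15 pools were fitted. Of 8578 genes tested with the pool as a block, 791 passed an adjusted p of 0.05 (9.22%), 415 higher with *Sost* (4.84%) and 376 lower (4.38%), and 8 by at least 2-fold (0.0933%), 3 higher (0.0350%) and 5 lower (0.0583%). No gene had ranges over pools that did not overlap (0 of 8578, 0.00%). Without the pool as a block, 51 genes passed in place of 791, among them *Nog*, *Etl4*, *Sema3d*, *Nt5e*, *Tmem119*, *Omd*, *Tnfrsf11b* and *Csf1* of the genes named below, and the other calls named below were lost.

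**Figure D5:**
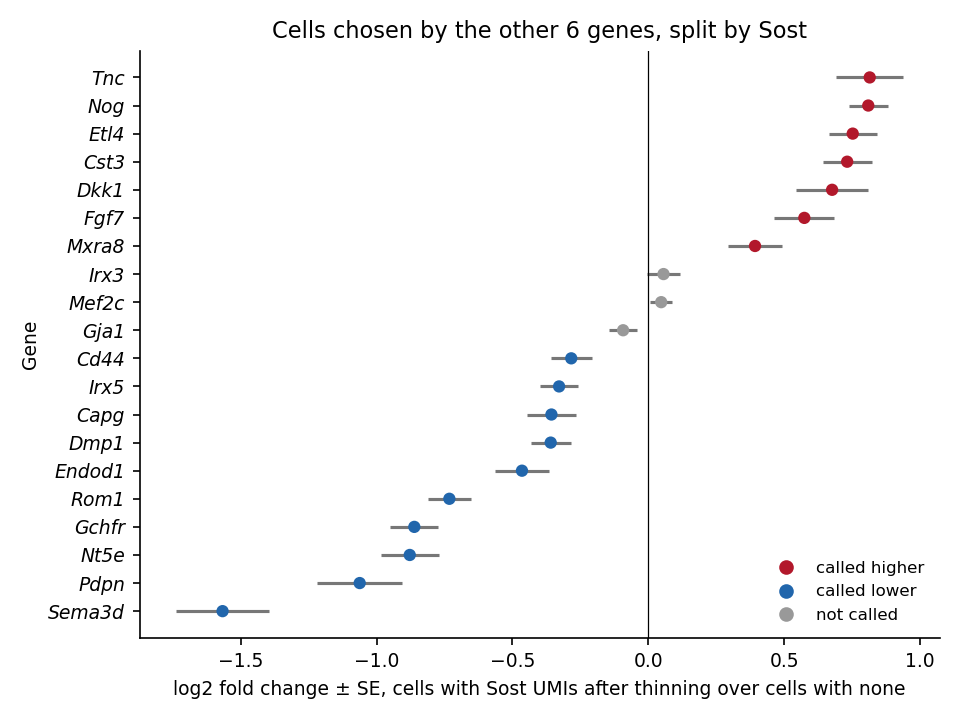
Log2 fold change ± SE of *Sost*-detected over *Sost*-undetected cells (after thinning to 5000 UMIs) among the cells chosen by the other 6 genes, in 15 pools, for 12 genes named by their change in the split of the members and for the tested osteocyte genes outside the score; red and blue points passed an adjusted p of 0.05 and grey points did not. *Dkk1* lies with the genes higher beside *Sost*, and *Pdpn*, *Dmp1* and *Cd44* with the lower ones.

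Of 9 tested osteocyte genes outside the score, 5 were lower in *Sost*-detected cells (55.6%, against 4.38% of all genes). Of the others, 1 was higher (11.1%, against 4.84%) and 3 did not pass. *Pdpn* was at 8.34, 20.03 and 67.5 CPM in the lowest, median and highest pool of *Sost*-detected cells and at 16.3, 45.6 and 181 in *Sost*-undetected ones, lower in 13 of 15 pools (log2 fold change -1.06 ± 0.16 SE, adjusted p = 4e-05). *Dmp1* was at 358, 763 and 1390.2 against 598, 1116 and 1875 and lower in 12 pools (log2 fold change -0.36 ± 0.07 SE, adjusted p = 0.00163), and *Cd44* at 87.7, 183 and 302 against 123, 215 and 398 (log2 fold change -0.28 ± 0.08 SE, adjusted p = 0.015). *Irx5* and *Capg*, an actin-capping protein gene, had log2 fold changes of -0.33 and -0.36. *Gja1* did not pass (log2 fold change -0.09 ± 0.05 SE, adjusted p = 0.307).

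*Dkk1* was the gene of that list that was higher with *Sost*, at 15.2, 37.3 and 84.4 against 11.6, 24.3 and 57.1, in 12 pools (log2 fold change 0.68 ± 0.13 SE, adjusted p = 0.00103). *Mef2c* had a log2 fold change of 0.05 ± 0.04 (adjusted p = 0.552). Of 12 tested Wnt genes, 4 were higher with *Sost* (33.3%, against 4.84% of all genes) and 2 lower (16.7%, against 4.38%). The higher genes were *Dkk1*, *Wif1*, *Lrp4* and *Lrp5*, and the lower ones *Dkk3* and *Frzb*. The call of *Frzb* was lost in 7 of 15 fits with 1 pool left out and with DESeq2 (adjusted p = 0.0644), that of *Wif1* in 3 and that of *Lrp4* in 2. *Bglap* was higher in 13 pools, at 4700.0, 10812 and 25653 against 3784, 9897 and 15554 (log2 fold change 0.39 ± 0.07 SE, adjusted p = 0.000393). *Omd* and *Tmem119*, both osteoblast genes lower in members, were also lower with *Sost* in each of 15 pools (log2 fold changes -0.93 and -0.57). None of the 3 cell-cycle genes tested passed (edgeR's quasi-likelihood test).

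Beyond the lists, the genes named by their rise in the split of the members were higher here too. They were *Nog*, noggin, a BMP antagonist (29.3, 50.4 and 105 against 10.6, 33.6 and 49.3; log2 fold change 0.81 ± 0.07 SE, adjusted p = 2.35e-08), *Tnc*, tenascin C (log2 fold change 0.82 ± 0.12 SE, adjusted p = 6.59e-05), *Etl4* (log2 fold change 0.75 ± 0.09 SE, adjusted p = 2.04e-06), *Cst3*, cystatin C (log2 fold change 0.73 ± 0.09 SE, adjusted p = 3.34e-06), the growth factor gene *Fgf7* (log2 fold change 0.57 ± 0.11 SE, adjusted p = 0.000895) and *Mxra8*, an adhesion molecule gene (log2 fold change 0.39 ± 0.10 SE, adjusted p = 0.00984). *Cst3* was abundant, at 7796, 14763 and 24976 against 3531, 9050.2 and 14993.

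The genes named by their fall, beside *Pdpn*, were lower here too. They were the semaphorin gene *Sema3d* (3.13, 6.68 and 22.3 against 6.79, 28.9 and 78.2; log2 fold change -1.57 ± 0.17 SE, adjusted p = 6e-07), *Nt5e*, CD73, which makes adenosine (19.96, 37.2 and 55.6 against 36.8, 69.8 and 129; log2 fold change -0.88 ± 0.11 SE, adjusted p = 2.84e-06), *Gchfr*, a regulator of tetrahydrobiopterin synthesis (log2 fold change -0.86 ± 0.09 SE, adjusted p = 2.11e-07), *Rom1* (log2 fold change -0.73 ± 0.08 SE, adjusted p = 5.9e-07) and *Endod1* (log2 fold change -0.46 ± 0.10 SE, adjusted p = 0.00215). Most of these cells are members, so this is the same data and no independent support. *Tnfrsf11b* was lower with *Sost* in 14 of 15 pools, at 0, 3.72 and 15.9 against 1.85, 8.46 and 28.5 (log2 fold change -1.29 ± 0.24 SE, adjusted p = 0.00064), and *Csf1*, a macrophage growth factor gene, higher in 14, at 34.98, 44.9 and 93.8 against 21.1, 28.7 and 52.0 (log2 fold change 0.60 ± 0.10 SE, adjusted p = 0.00017).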

How the data were processed

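BMSC-OBs from 77 DO mice were captured in 16 pools and sequenced in 2 runs (32 samples) with a 10x Genomics 3′ kit. The deposited matrices hold raw UMI counts per gene and barcode that the authors made with Cell Ranger 5.0.0 on GRCm38 (mm10). The filtered cells, cell type names and mouse assignments of the study were not used here. Total counts per pool were 53990642 to 100777353, and eligible cells per pool 1392 to 4031. Members and gene lists were chosen with earlier results of these data known.

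For each class, the UMIs of all its cells in a pool were added up where a pool had at least 20 cells of each class. Sums were tested with edgeR 4.0.16 (R 4.3.3; TMM, filterByExpr, quasi-likelihood F test) with the pool as a block, and p-values were adjusted by Benjamini-Hochberg over all genes. The 7 score genes, *Ibsp* and *Tyrobp* were left out of counts of calls. SE was obtained from the fold change and the root of F. CPM and counts of pools higher or lower used plain totals, without the TMM factors that entered the fold changes and p-values. Named genes are those of the lists, and the 12 (for the *Sost* split 6) largest rises and falls among genes with an adjusted p of at most 0.05, the same direction in every pool and at least 50 (20) CPM in the higher class, without predicted, clone-named or mitochondrial genes. The block pairs 2 classes of the same droplet library: within a pool their deviations correlated at 0.334 to 0.597 (median 0.532), and all 16 pools correlated best with themselves. With the block, p-values set the difference between classes against its spread from pool to pool. Since mice were mixed, they say nothing of the spread between mice.

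On simulated counts for members against other Ibsp-high cells (11748 genes), 83% of 100 genes changed by 0.5 on the log2 scale were recovered. Of 99 genes changed by 1, 99.0% were recovered, and 12 unchanged genes were called. Far fewer genes changed there than passed in the data (57.0%), so the simulation does not measure false calls among the 6748. Doublets were called per pool with Scrublet in scanpy 1.11.5, as a preset number of highest scores, and kept in the main analysis. In pool 1, the 150 highest scores held 97.3% of 150 simulated doublets among simulated droplets. Among 3000 real barcodes, they held 20.7% of 150 sums of a *Tyrobp*-positive and a *Tyrobp*-negative real barcode. Doublets already among the real barcodes can take those places, so 20.7% does not measure the share missed. Doublets may remain after the called ones are removed. Permutation tests over pools used scipy 1.17.1, exact for genes per cell and with 100000 draws for correlations. Alternatives were DESeq2 1.42.0, no filter, no block, the second run, thinned scores, the top 4% or 16%, the top 8% within each pool, members also held to 3% *Ibsp*, called doublets removed, comparison cells from 1% *Ibsp* and leaving out each pool. Added after seeing the data were 7% *Ibsp* in both classes, totals without *Ibsp*, thinned scores and a choice by the other 6 genes for the *Sost* split, and the Ibsp-high share of cells that were no members.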

Additional observations from a re-analysis of the deposited data

How the results depend on the processing

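Of 11835 genes, 6748 passed between members and other Ibsp-high cells, and 6487 to 6761 with 1 pool left out. DESeq2 gave 6658, no replicate block 5027, and totals without *Ibsp* 6744. With at least 2-fold, 688 passed (671 to 750 with 1 pool left out), but 1431 without the filter, which tests more genes, and 298 with both classes at 7% *Ibsp* or more. For members with against those without *Sost* UMIs after thinning, 618 genes passed (491 to 634 with 1 pool left out), 563 with DESeq2 and 40 with no replicate block; in the cells chosen by the other 6 genes, 791 passed (619 to 843 with 1 pool left out), 657 with DESeq2 and 51 with no replicate block (the cause was not tested). The block changed no call of the left-out markers. With 1 pool left out, the left-out markers ranged from 2.17 to 2.33 (*Sost*), 1.83 to 1.93 (*Phex*), 1.33 to 1.48 (*Mepe*), 1.16 to 1.34 (*Gal*), 1.17 to 1.24 (*Ptprz1*), 0.97 to 1.02 (*Ackr3*) and 0.96 to 1.01 (*Kcnk1*), and the difference in genes per cell from -39.0 to -31.4.

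With both classes at 7% *Ibsp*, *Csf1* turned to 0.24, *Robo2* to -0.19, *Pparg* to 0.12 and *Cnn1* to 0.14; with the top 16%, *S100a8* turned to 0.0930 and *S100a9* to 0.0913; and with comparison cells from 1% *Ibsp*, *Nrp2* turned to 0.0115 (log2 fold changes; the cause was not tested). Over 277 fold changes of named genes, 6531 of 6968 values under an alternative kept their direction and side of the threshold and 430 no longer passed, 136 of them with no replicate block. Besides the lost calls given beside their genes, *Msn* was lost with no filter (adjusted p = 0.117), and *Cdkn2c* also in the second run (0.13) and with thinned scores (0.0918) and the top 16% (0.0834; edgeR's quasi-likelihood test). With comparison cells from 1% *Ibsp*, *Col2a1*, *Egln3*, *Ero1l* and *Pfkfb3* also no longer passed (adjusted p = 0.0547, 0.145, 0.168 and 0.311). *Egln3* was also lost with DESeq2 (0.0514), the top 8% within each pool (0.0952), thinned scores (0.0509) and the top 16% (0.27), and *Pfkfb3* under further settings (adjusted p from 0.0519 to 0.871). *Piezo1* was lost with no filter (0.0703), *Tyms* with the top 4% (0.055) and *Csf1* with called doublets removed (0.125). Between members and other Ibsp-high cells with no replicate block, the calls lost included those of *Axin2*, *Bnip3*, *Cdkn2c*, *Col2a1*, *Csf1*, *Cxcl12*, *Egln3*, *Enpp1*, *Ero1l*, *Igkc*, *Mmp13*, *Msn*, *Pfkfb3*, *Runx2*, *Vegfa* and *Wif1*. This is not a full list. Depth limits genes under about 1 CPM, and pool 2 with 47 members has the least precise levels.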
